A study of Mus musculus with 9 samples.

Results

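The 41 genes described here act in mitosis, the division of the duplicated chromosomes between daughter cells. They were chosen by name, as a list of known mitosis genes, and all 41 were found among the 34619 unique gene symbols of the deposited values. The values come from uterus RNA of female wild-type CD-1 (ICR) mice, an outbred stock bought at 7 to 8 weeks of age and kept for a further week before use. The mice were gavaged for 28 days with bisphenol AF (BPAF) or bisphenol B (BPB), each at a daily dose of 300 µg/kg body weight, or with pure corn oil as the control. All 3 groups had an estrogen-free diet, corncob bedding and water from bottles with metal sippers. BPAF and BPB are bisphenols that differ in the groups on the carbon between their phenol rings, a pair of trifluoromethyl groups in BPAF and a methyl and an ethyl group in BPB. Each group has 3 libraries, named here BPAF 1 to 3, BPB 1 to 3 and control 1 to 3. The labels give neither the stage of the estrous cycle at collection nor whether each library is a separate mouse, so p-values measure the spread between these libraries.

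Mitosis genes are expressed in cells that divide and are almost silent in cells at rest. In G2 phase the transcription factors FOXM1 and B-MYB raise them together with the MuvB complex, and in resting cells the DREAM complex holds them down. Their promoters are known for the CCAAT box, bound by NF-Y, and for the cell cycle genes homology region (CHR), bound by MuvB. In the adult rodent uterus, division of epithelial cells follows estrogen and so changes over the estrous cycle.

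Levels are given in FPKM, fragments per kilobase of gene length in proportion to the total of each library, which allows levels of different genes to be compared only as far as the length used for each is right. For 38 of the 41 genes that length matched no annotated transcript of the gene. Read counts recovered from the values with these lengths put 25 reads (Foxm1 in control 3) to 4472 reads (Mki67 in control 3) behind each value of the 41 genes. The libraries rested on 12620196 to 15616776 reads. Control 3 stood apart: the 13 protein genes of the mitochondrial genome took 13.0% of its reads, against 3.4% to 8.31% in the other 8 libraries, and it held the fewest genes at 1 FPKM or more (11614, against 13105 in BPAF 1). Markers of the uterine stroma and epithelium were detected in every library, with 7 or 8 of 8 genes of each list at 1 FPKM or more. All 10 markers of the urothelium, the lining of the urinary tract, also reached 1 FPKM in the 3 BPB libraries and BPAF 1, against 2 to 4 of 10 in the other 5 libraries.

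In the BPB uteri all 41 mitosis genes had lower mean log2 levels than in control, and none passed the test. In the BPAF uteri BPAF 1 and BPAF 2 stood within or above the range of the controls for nearly all genes, and BPAF 3 stood with BPB. The summed level of the 41 genes was 313, 449 and 79.0 FPKM in BPAF 1, 2 and 3, 139.8, 81.3 and 69.7 FPKM in BPB 1, 2 and 3, and 164, 329 and 313 FPKM in control 1, 2 and 3. All 3 BPB libraries lay below all 3 controls, whereas the BPAF libraries held both the highest and the second lowest sum of the 9. As mean ± SD the sum was 280.4 ± 187 FPKM in BPAF, 96.9 ± 37.6 FPKM in BPB and 269 ± 91.3 FPKM in control (n = 3 each). The SD of BPAF was larger than those of BPB and control. In bulk tissue, fewer dividing cells and less mitotic RNA per cell cannot be told apart.

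**Figure D1:**
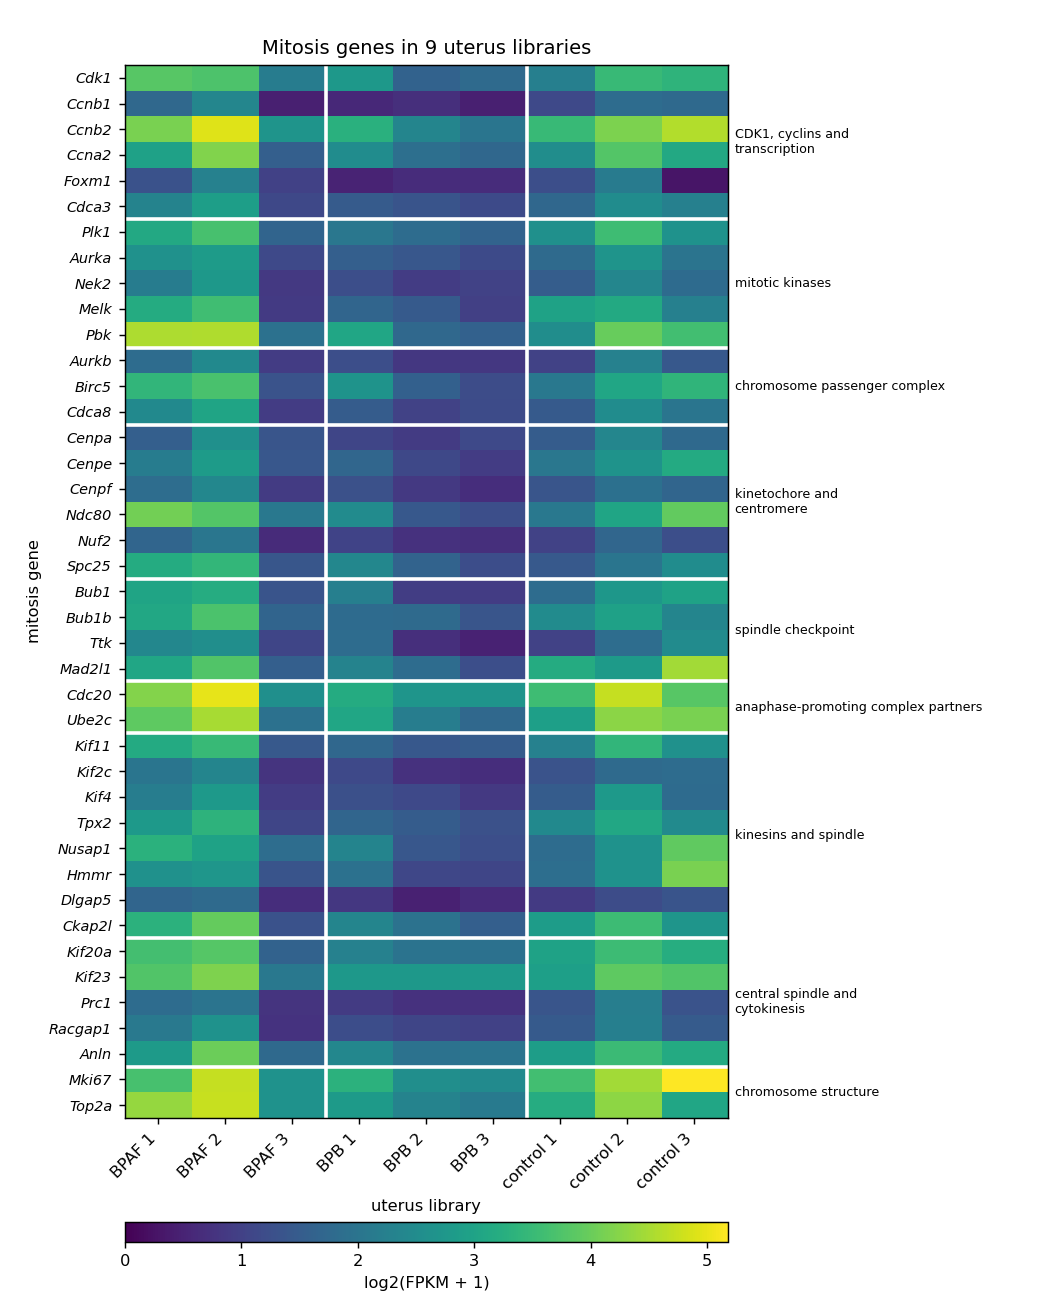
Levels of the 41 mitosis genes, as log2(FPKM + 1) on a colour scale, in the 9 uterus libraries (columns, by group) with genes in rows grouped by role. The columns of BPAF 3 and the 3 BPB libraries are dark for most genes, while BPAF 1, BPAF 2, control 2 and control 3 are light.

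The 41 genes moved together over the libraries. BPAF 2 held the highest value of 33 of the 41 genes, control 3 of 5, BPAF 1 of 2 and control 2 of 1. The lowest value fell in BPB 3 for 21 genes, in BPAF 3 for 14, in BPB 2 for 5 and in control 3 for 1, Foxm1. Highest over lowest library gave 5.08-fold (Aurka) to 17.7-fold (Foxm1), with a median of 7.57-fold, against a median of 3.25-fold over all tested genes above 0 in every library. Across the 9 libraries, the log2 level of each gene had a Pearson correlation with the mean of the other 40 of 0.63 for Foxm1, 0.79 for Hmmr, 0.82 for Nusap1 and 0.83 for Mad2l1, up to 0.99 for Kif2c. The median was 0.95, and 32 of the 41 genes exceeded 0.9, against 71 of the 13702 tested genes outside the list (0.518%). Libraries of one group share treatment, and all genes of a library share its depth and composition, so these correlations describe the 9 libraries.

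The promoters were read because the 41 genes moved together. RefSeq (GRCm38.p6) gave windows of 300 bases, from 250 before to 50 after the start, for 34 of the 41 genes, 35 windows in all. The motifs searched on both strands were CCAAT, and TTTGAA or TTCGAA for the CHR. Neighbouring matches may abut or share letters, and each match was counted. CCAAT stood in 27 of 35 windows (77.1%), against 37.4% of the 32851 RefSeq windows of the same length, and at least 2 CCAAT boxes stood in 19 (54.3%), against 11.7%. The CHR letters stood in 27 of 35 (77.1%), against 19.2%, and from 100 bases before to 50 after the start in 26 of 35 (74.3%), against 8.6%. Both motifs stood in 24 of 35 windows (68.6%), against 7.5% of all windows. A match is a description of letters, not a bound site, and a window with no match says only that these letters are not in it.

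**Figure D2:**
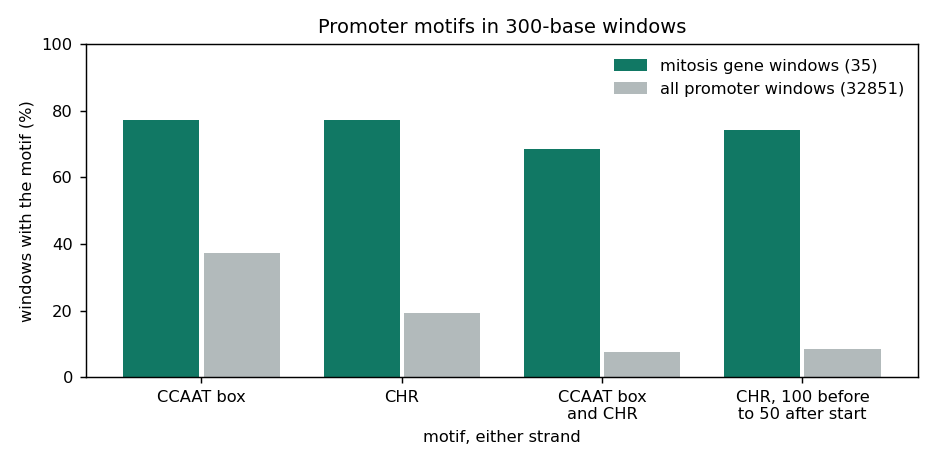
Share of 300-base promoter windows that hold each motif on either strand, in percent, for the 35 windows of mitosis genes and for all 32851 RefSeq windows. The mitosis gene bars stand at 68.6% to 77.1% and the bars of all windows at 7.5% to 37.4%.

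The 200 bases before the start are shown for the 6 genes with the smallest p between BPB and control, and for Ccnb1, Cdc20 and Birc5 as the cyclin, the anaphase activator and the survivin gene. Capitals mark CCAAT, its reverse complement ATTGG, and the CHR letters TTTGAA or TTCGAA with TTCAAA, the reverse complement of the first.
Cenpe, chr3:135212363-135212562, plus strand: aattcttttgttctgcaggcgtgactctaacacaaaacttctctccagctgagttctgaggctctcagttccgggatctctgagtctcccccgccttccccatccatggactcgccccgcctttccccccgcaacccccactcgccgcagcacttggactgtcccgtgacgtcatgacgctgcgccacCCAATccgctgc
Mki67, chr7:135716380-135716579, minus strand: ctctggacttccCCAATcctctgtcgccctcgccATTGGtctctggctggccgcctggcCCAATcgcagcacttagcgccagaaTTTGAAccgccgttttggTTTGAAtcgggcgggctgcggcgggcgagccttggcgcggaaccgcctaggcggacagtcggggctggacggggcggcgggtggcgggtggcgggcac
Mad2l1, chr6:66535021-66535220, plus strand: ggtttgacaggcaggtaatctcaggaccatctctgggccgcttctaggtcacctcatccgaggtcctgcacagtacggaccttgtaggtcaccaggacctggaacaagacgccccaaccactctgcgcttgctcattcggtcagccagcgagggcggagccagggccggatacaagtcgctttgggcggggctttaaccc
Ccnb2, chr9:70421555-70421754, minus strand: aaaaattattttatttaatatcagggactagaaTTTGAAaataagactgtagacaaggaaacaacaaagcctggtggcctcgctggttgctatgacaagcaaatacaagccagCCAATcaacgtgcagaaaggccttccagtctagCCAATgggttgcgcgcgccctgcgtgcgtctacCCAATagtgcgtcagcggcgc
Hmmr, chr11:40733438-40733637, minus strand: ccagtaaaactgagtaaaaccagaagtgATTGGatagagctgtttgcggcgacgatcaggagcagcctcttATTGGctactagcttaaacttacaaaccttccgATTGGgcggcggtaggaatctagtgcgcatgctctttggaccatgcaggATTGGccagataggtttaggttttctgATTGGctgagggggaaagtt
Kif11, chr19:37376182-37376381, plus strand: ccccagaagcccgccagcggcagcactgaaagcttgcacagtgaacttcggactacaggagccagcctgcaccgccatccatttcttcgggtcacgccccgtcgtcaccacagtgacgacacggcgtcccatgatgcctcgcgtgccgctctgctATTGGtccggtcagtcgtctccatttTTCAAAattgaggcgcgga
Ccnb1, chr13:100786487-100786686, minus strand: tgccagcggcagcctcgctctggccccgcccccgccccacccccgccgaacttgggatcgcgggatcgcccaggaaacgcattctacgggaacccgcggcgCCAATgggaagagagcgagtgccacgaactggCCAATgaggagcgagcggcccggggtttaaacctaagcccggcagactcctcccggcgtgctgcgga
Cdc20, chr4:118437344-118437543, minus strand: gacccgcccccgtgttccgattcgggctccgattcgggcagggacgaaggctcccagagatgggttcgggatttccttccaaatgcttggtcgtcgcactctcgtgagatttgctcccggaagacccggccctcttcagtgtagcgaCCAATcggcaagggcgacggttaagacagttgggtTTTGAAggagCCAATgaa
Birc5, chr11:117849037-117849236, plus strand: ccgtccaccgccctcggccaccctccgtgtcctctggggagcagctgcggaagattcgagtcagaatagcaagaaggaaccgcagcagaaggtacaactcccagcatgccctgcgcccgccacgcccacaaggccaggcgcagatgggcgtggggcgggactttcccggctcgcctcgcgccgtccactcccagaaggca
Hmmr carried 5 CCAAT boxes on these 200 bases, Mki67 and Ccnb2 carried 3, and Mad2l1 and Birc5 carried neither motif. Mki67, with both motifs, and Birc5, with neither, both had a lower mean in BPB than in control. All 41 genes did, so this pair tells nothing of the motifs. Kif11, Ccnb2, Mki67 and Cdc20 carried both motifs.

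The comparison of BPB with control addresses whether expression of mitosis genes in the uterus differed after the exposure. No gene of the 41 passed limma's test at an adjusted p under 0.05, Benjamini-Hochberg adjusted over all 13743 tested genes, where 351 genes passed (2.55%), 69 of them lower (0.502%) and 282 higher (2.05%) in BPB. At an unadjusted p under 0.05, 13 of the 41 genes were lower in BPB, against 4.6% of all tested genes, and none was higher. The log2 difference, BPB minus control on the scale log2(FPKM + 1), was below 0 for 41 of 41 genes, against 36.5% of all tested genes below 0 and 63.5% above. Its median was -1.03, ranging from -1.69 for Mad2l1 to -0.25 for Spc25, and the median of all tested genes was 0.15. In 27 of the 41 genes all 3 BPB libraries lay below all 3 controls, against 6.1% of all tested genes. Of the 14 genes whose groups overlapped, 12 did so only because BPB 1 exceeded control 1.

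**Figure D3:**
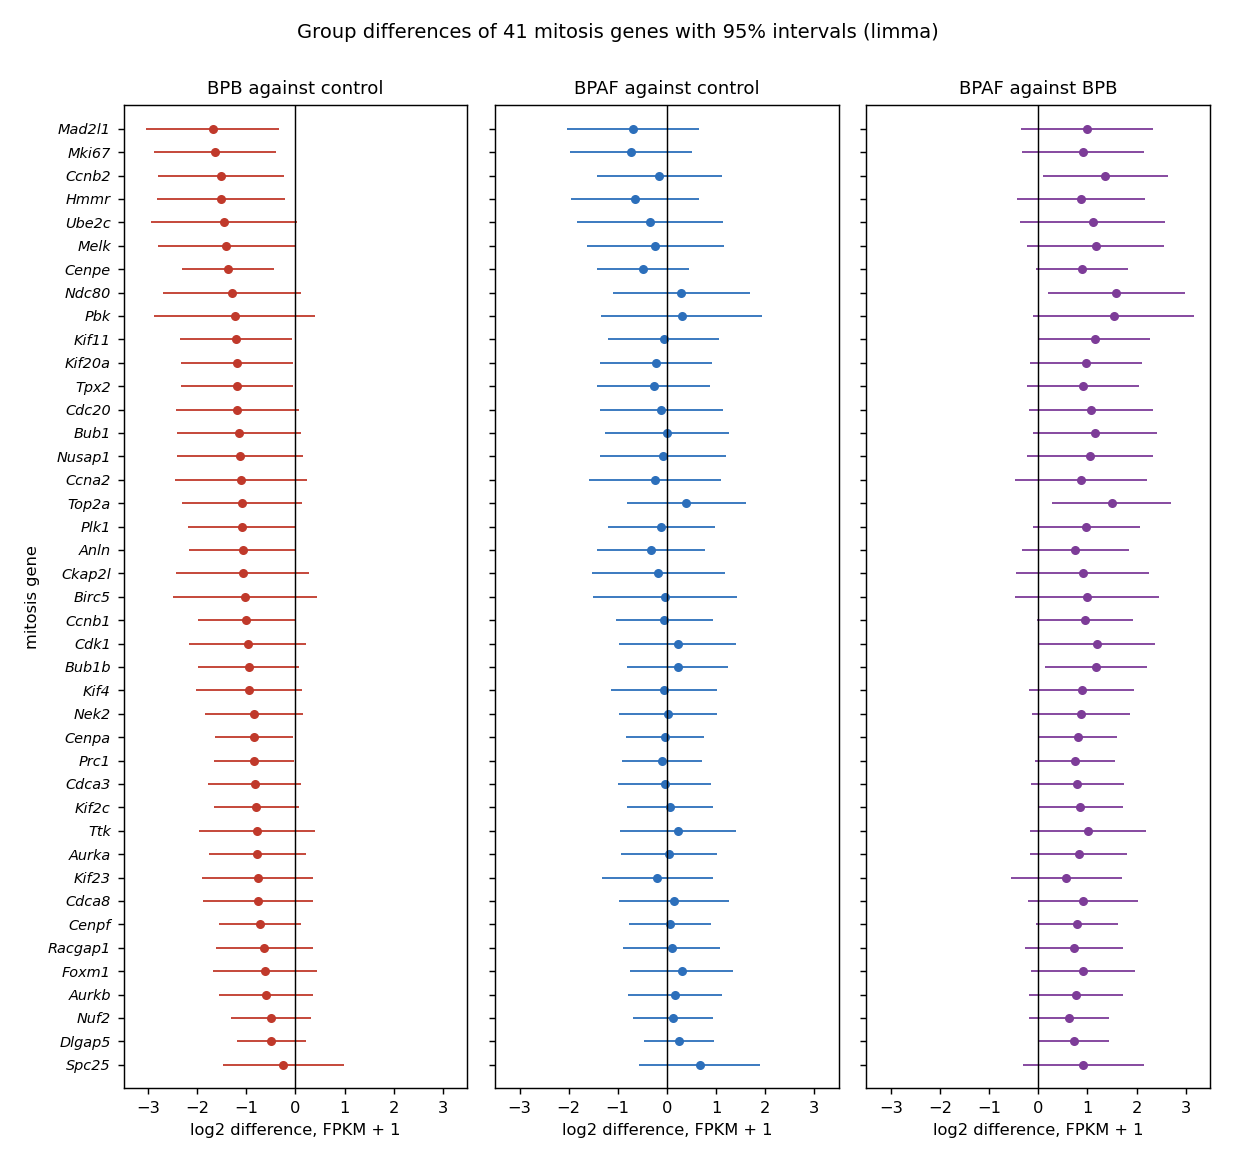
Difference in log2(FPKM + 1) of each mitosis gene with its 95% interval from limma, for BPB against control, BPAF against control and BPAF against BPB, with genes ordered by the first panel. Every point lies below 0 in the first panel (-1.69 to -0.25) and above 0 in the third (0.57 to 1.59), while the middle panel straddles 0 (-0.74 to 0.67).

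In the sentences that follow, the 3 values of a group are those of libraries 1, 2 and 3. Among CDK1 and its cyclins, all 6 genes of the group were lower in BPB on average, with a median log2 difference of -0.99 and groups that did not overlap for 4. Cdk1, the kinase that drives entry into mitosis, had 13.3, 12.2 and 3.54 FPKM in BPAF, 5.81, 2.07 and 2.46 FPKM in BPB and 3.68, 10.2 and 9.35 FPKM in control. BPB 2 and BPB 3 lay below all controls, and BPB 1 lay above control 1. The log2 difference of BPB from control was -0.97 (SE 0.53, limma adjusted p 0.389). Ccnb1, the B-type cyclin that activates CDK1, had 2.37, 4.21 and 0.372 FPKM in BPAF, 0.511, 0.621 and 0.371 FPKM in BPB and 1.22, 2.55 and 2.42 FPKM in control. All 3 BPB libraries and BPAF 3 stood below 1 FPKM and below every control, with a BPB difference of -1.0 (SE 0.44, limma adjusted p 0.278). Ccnb2, a second B-type cyclin, had 16.7, 29.4 and 5.43 FPKM in BPAF, 8.80, 4.11 and 3.05 FPKM in BPB and 10.2, 16.8 and 22.9 FPKM in control. BPB lay wholly below control here too, and the difference was -1.52 (SE 0.57, limma adjusted p 0.203).

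Ccna2, cyclin A2 of S and G2 phase, had 6.81, 17.4 and 1.97 FPKM in BPAF, 4.74, 2.70 and 2.32 FPKM in BPB and 4.83, 12.9 and 7.69 FPKM in control. The highest BPB library was just under the lowest control, and the difference was -1.11 (SE 0.60, limma adjusted p 0.388). Foxm1, the transcription factor that activates many of the other genes, had 1.46, 3.84 and 1.0 FPKM in BPAF, 0.428, 0.576 and 0.573 FPKM in BPB and 1.37, 3.46 and 0.217 FPKM in control. The 3 BPB libraries lay close together, but control 3 held the lowest level of all 9 libraries, so the groups overlapped and the difference was -0.62 (SE 0.47, limma adjusted p 0.557). Without control 3, Foxm1 had the smallest adjusted p of the 41 genes in BPB against control, 0.225 in limma. Cdca3, a trigger of mitotic entry, differed by -0.83 with groups that did not overlap.

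The 5 genes grouped here as mitotic kinases had a median difference of -1.09 between BPB and control. Plk1, the polo-like kinase of centrosomes and mitotic exit, had 7.68, 11.8 and 2.17 FPKM in BPAF, 3.15, 2.55 and 2.14 FPKM in BPB and 5.03, 10.8 and 5.26 FPKM in control. All BPB libraries lay below all controls, and the difference was -1.09 (SE 0.48, limma adjusted p 0.288). Aurka, the Aurora kinase of spindle poles, Nek2, a kinase of centrosome separation, and Melk likewise had BPB below control in all libraries, with differences of -0.77, -0.84 and -1.41. Pbk, a kinase active in mitosis, differed by -1.24, and BPB 1 (7.39 FPKM) exceeded control 1 (4.83 FPKM).

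The chromosome passenger complex corrects the attachment of chromosomes, and its 3 genes among the 41 all overlapped between BPB and control. Aurkb, its kinase, had 2.58, 4.52 and 0.901 FPKM in BPAF, 1.37, 0.793 and 0.796 FPKM in BPB and 1.04, 3.84 and 1.69 FPKM in control. BPB 1 lay above control 1 and below controls 2 and 3, and the difference was -0.60 (SE 0.43, limma adjusted p 0.528). Birc5, which encodes survivin, had 9.55, 12.0 and 1.49 FPKM in BPAF, 5.34, 2.00 and 1.29 FPKM in BPB and 3.19, 7.40 and 9.44 FPKM in control. BPB 1 again lay between control 1 and control 2, and the difference was -1.03 (SE 0.65, limma adjusted p 0.469). Cdca8, or borealin, differed by -0.76.

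Among the 6 kinetochore genes of the list, which join chromosomes to spindle fibres, Cenpe had the smallest p of all 41 genes. Cenpe, a kinesin motor of the kinetochore, had 3.51, 6.15 and 1.66 FPKM in BPAF, 2.26, 1.17 and 0.901 FPKM in BPB and 3.16, 5.31 and 8.01 FPKM in control. Every BPB library lay below every control, and the difference was -1.38 (SE 0.42, limma adjusted p 0.127). Cenpf, a kinetochore protein of the outer plate, had 2.63, 4.28 and 0.872 FPKM in BPAF, 1.42, 0.818 and 0.604 FPKM in BPB and 1.58, 2.75 and 2.21 FPKM in control. Its groups did not overlap either, with a difference of -0.71 (SE 0.37, limma adjusted p 0.364). Cenpa, the histone of the centromere, also did not overlap, at 1.06 ± 0.179 FPKM across BPB and 2.80 ± 1.23 FPKM across control (± SD, n = 3 each).

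The Ndc80 complex grips microtubules, and its 3 genes among the 41 all overlapped between BPB and control. Ndc80 had 15.9, 12.8 and 3.19 FPKM in BPAF, 4.64, 1.69 and 1.36 FPKM in BPB and 3.22, 7.21 and 14.3 FPKM in control. BPB 1 exceeded control 1, and the difference of BPB from control was -1.30 (SE 0.62, limma adjusted p 0.324). Spc25 had 8.07, 9.77 and 1.61 FPKM in BPAF, 4.24, 2.12 and 1.32 FPKM in BPB and 1.74, 3.05 and 4.73 FPKM in control. BPB 1 exceeded controls 1 and 2, BPB 2 exceeded control 1, and the difference of -0.25 (SE 0.55, limma adjusted p 0.874) was the nearest to 0 of the 41. Nuf2 differed by -0.50, again with BPB 1 above control 1.

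The spindle checkpoint delays anaphase until all chromosomes are attached. Its 4 genes among the 41 had a median difference of -1.05 between BPB and control. Mad2l1, which encodes the checkpoint protein MAD2, had 7.33, 12.6 and 1.95 FPKM in BPAF, 3.99, 2.55 and 1.38 FPKM in BPB and 8.14, 6.04 and 20.9 FPKM in control. BPB lay wholly below control, control 3 was the highest of all libraries, and the difference of -1.69 (SE 0.60, limma adjusted p 0.184) was the lowest of the 41. Bub1, a checkpoint kinase, had 7.10, 8.20 and 1.55 FPKM in BPAF, 3.70, 0.923 and 0.903 FPKM in BPB and 2.57, 5.71 and 6.85 FPKM in control. BPB 2 and BPB 3 lay below 1 FPKM while BPB 1 exceeded control 1, and the difference was -1.15 (SE 0.56, limma adjusted p 0.328). Bub1b, which encodes BUBR1, had 7.60, 12.0 and 2.20 FPKM in BPAF, 2.52, 2.45 and 1.59 FPKM in BPB and 4.64, 6.84 and 4.15 FPKM in control. Its groups did not overlap between BPB and control, with a difference of -0.95 (SE 0.46, limma adjusted p 0.326). Ttk, the kinase MPS1, differed by -0.78.

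The anaphase-promoting complex marks cyclin B and securin for destruction. Cdc20, its activator, had 17.6, 30.7 and 4.94 FPKM in BPAF, 8.14, 5.49 and 5.38 FPKM in BPB and 10.8, 25.2 and 13.2 FPKM in control. The 3 BPB libraries and BPAF 3 lay below every control, and the BPB difference was -1.18 (SE 0.56, limma adjusted p 0.317). Ube2c, the ubiquitin-conjugating enzyme of the complex, had 13.8, 21.7 and 2.80 FPKM in BPAF, 7.32, 3.55 and 2.36 FPKM in BPB and 6.58, 18.5 and 16.6 FPKM in control. BPB 1 stood above control 1, and the difference was -1.45 (SE 0.66, limma adjusted p 0.297).

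The 8 genes of kinesins and spindle assembly had a median difference of -1.10 between BPB and control. Kif11, the kinesin that pushes spindle poles apart, had 7.91, 10.2 and 1.74 FPKM in BPAF, 2.33, 1.69 and 1.84 FPKM in BPB and 3.82, 9.64 and 5.13 FPKM in control. All BPB libraries lay below all controls, with a difference of -1.21 (SE 0.51, limma adjusted p 0.255). Hmmr, a spindle pole protein, had 5.16, 5.56 and 1.55 FPKM in BPAF, 2.80, 1.14 and 1.12 FPKM in BPB and 2.66, 5.22 and 16.5 FPKM in control. Control 3 stood far above the next library, BPB 1 exceeded control 1, and the difference was -1.51 (SE 0.58, limma adjusted p 0.214). Dlgap5, which stabilises kinetochore fibres, had 2.24, 2.44 and 0.600 FPKM in BPAF, 0.797, 0.389 and 0.560 FPKM in BPB and 0.839, 1.31 and 1.52 FPKM in control. BPB lay just below control in all libraries, and the difference was -0.49 (SE 0.32, limma adjusted p 0.479). Kif2c, Kif4, Tpx2 and Ckap2l had BPB below control in all libraries, with differences of -0.79, -0.94, -1.19 and -1.08, and Nusap1 overlapped at -1.13.

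The 5 genes of the central spindle and of cytokinesis, Kif20a, Kif23, Prc1, Racgap1 and Anln, all had BPB wholly below control. Anln, the anillin of the contractile ring, had 6.11, 15.1 and 2.40 FPKM in BPAF, 4.30, 2.88 and 2.96 FPKM in BPB and 6.38, 10.5 and 7.95 FPKM in control. The gap between the highest BPB library and the lowest control was wider than the spread within BPB, and the difference was -1.08 (SE 0.49, limma adjusted p 0.296). Kif23, a motor of the central spindle, was the steadiest gene of the list in BPB, at 5.81 ± 0.0449 FPKM, against 11.1 ± 3.93 FPKM across control (± SD, n = 3 each). Prc1, which bundles the central spindle, stood at 0.740 ± 0.117 FPKM across BPB and 2.24 ± 1.21 FPKM across control.

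The remaining 2 genes act on chromosome structure, and both had BPB wholly below control. Mki67, the proliferation antigen that coats mitotic chromosomes, had 11.8, 25.5 and 5.24 FPKM in BPAF, 8.96, 4.88 and 4.53 FPKM in BPB and 11.3, 21.0 and 35.2 FPKM in control. Control 3 was the highest library and BPB 2 and 3 were the lowest, with a difference of -1.64 (SE 0.55, limma adjusted p 0.165). Top2a, the topoisomerase that untangles sister chromosomes, had 19.5, 25.7 and 5.26 FPKM in BPAF, 6.04, 4.01 and 3.38 FPKM in BPB and 8.16, 18.6 and 7.34 FPKM in control. BPAF 2 and not control 3 was its highest library, and the difference of BPB from control was -1.09 (SE 0.54, limma adjusted p 0.338).

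**Figure D4:**
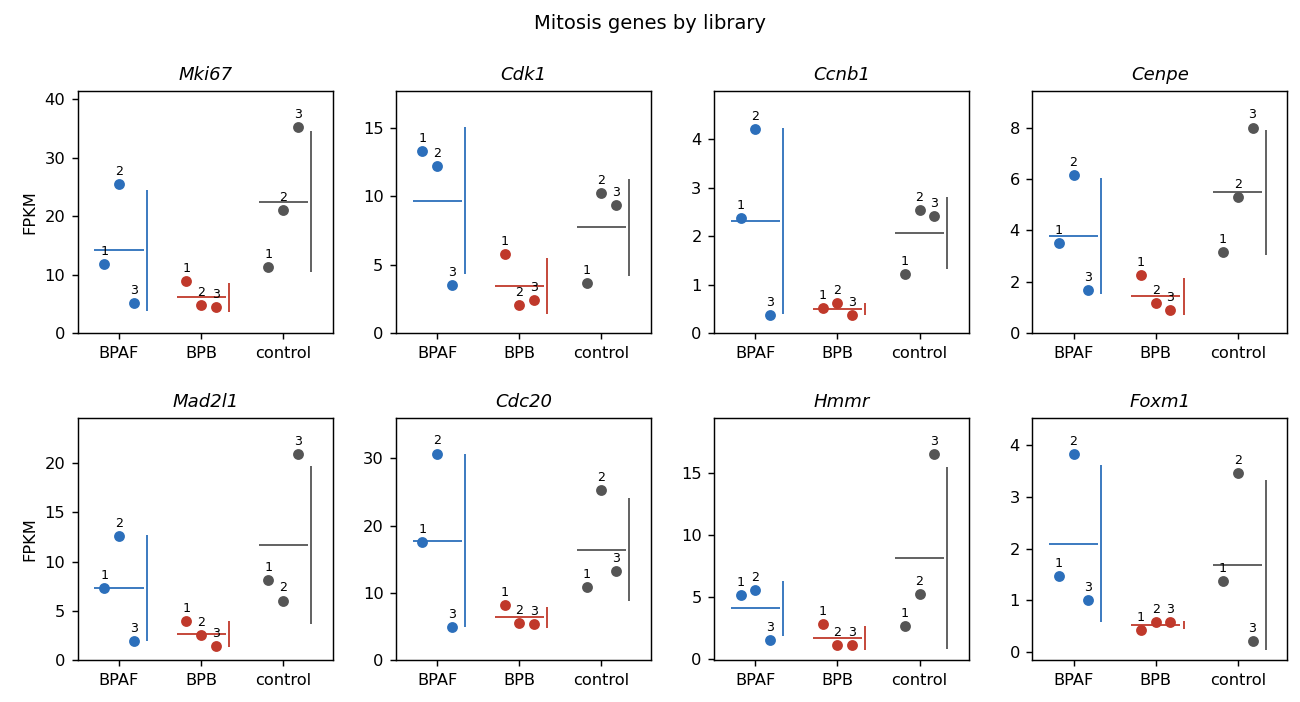
FPKM of 8 mitosis genes in BPAF, BPB and control, with numbered points for libraries, horizontal lines for group means and vertical lines for mean ± SD (n = 3). BPAF 3 stands with the BPB points for Mki67, Ccnb1 and Cdc20, and control 3 is the highest point for Mki67, Mad2l1 and Hmmr and the lowest for Foxm1.

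The difference between BPB and control rested on no one library for its direction. With each of the 6 libraries left out in turn, 40 or 41 of the 41 genes had a lower mean in BPB. The median then ranged from -1.23 without control 1 to -0.78 without control 2. Without BPB 1 or without control 1 the groups did not overlap for 39 genes, against 11.7% and 8.1% of all tested genes. Without control 3 the median was -0.92 and 28 genes did not overlap (16.2% of all tested genes). In place of 13, the genes lower in BPB at an unadjusted p under 0.05 numbered 3 without BPB 2 (3.61% of all tested genes), 2 without BPB 3 (2.98%), 4 without control 2 (4.65%) and 4 without control 3 (7.21%). Each of these counts is within a few genes of what the share of all tested genes would give. The count was 10 without BPB 1 (4.09% of all tested genes) and 14 without control 1 (3.07%). It was 32 when only the 6 libraries compared were fitted (4.98% of all tested genes). Under median-ratio scaling it was 26, where the share of all tested genes was 8%, in place of 4.6%. In the fit of those 6 libraries the lowest adjusted p was 0.051, for Kif20a, in limma.

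Other tissue markers moved with the same libraries. The summed level of the 10 urothelial markers was 1695, 2457 and 2847 FPKM in BPB 1, 2 and 3, against 7.75, 7.5 and 82.6 FPKM in control 1, 2 and 3. All 10 were listed above 0 in BPB, while 1, 3 and 2 of them were listed at 0 in control 1, 2 and 3. The summed level of the 8 smooth muscle markers was 7435, 8629 and 11905 FPKM in BPB and 4555, 5660 and 3555 FPKM in control, all 8 above 0 in each library. Groups did not overlap for either sum, and BPB 3, highest in both, was the library with the lowest sum of mitosis genes. The 8 markers of uterine epithelium summed to 944, 1477 and 1109 FPKM in BPB and 1532, 958 and 1158 FPKM in control, and these overlapped. This sum joins genes that went opposite ways. Epcam lay wholly below control, with 100, 128 and 86.8 FPKM in BPB and 264, 148 and 406 FPKM in control. Krt18 lay wholly above it, with 295, 518 and 467 FPKM in BPB and 187, 161 and 112 FPKM in control. The other epithelial markers overlapped. The 6 adipocyte markers summed to 284, 154 and 81.8 FPKM in BPB and 17.9, 21.7 and 51.2 FPKM in control. The 6 skeletal muscle markers summed to 287, 193 and 489 FPKM in BPB and 152, 106 and 70.02 FPKM in control, and the 6 neutrophil markers to 2.65, 1.34 and 0.162 FPKM in BPB and 22.2, 11.0 and 6.80 FPKM in control. None of these 3 sums overlapped between the groups, but single genes in each list did. Fabp4 and Pparg lay wholly above control in BPB, while Adipoq, Lep, Plin1 and Cidec were lower in BPB 3 than in every control. Ckm and Myh2 lay wholly above control in BPB, while Acta1, Tnnt3, Mylpf and Myh4 overlapped. S100a8, S100a9 and Retnlg lay wholly below control in BPB, while Ly6g, Csf3r and Cxcr2 overlapped. The part of these markers in the lower mitosis levels of BPB was not tested.

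**Figure D5:**
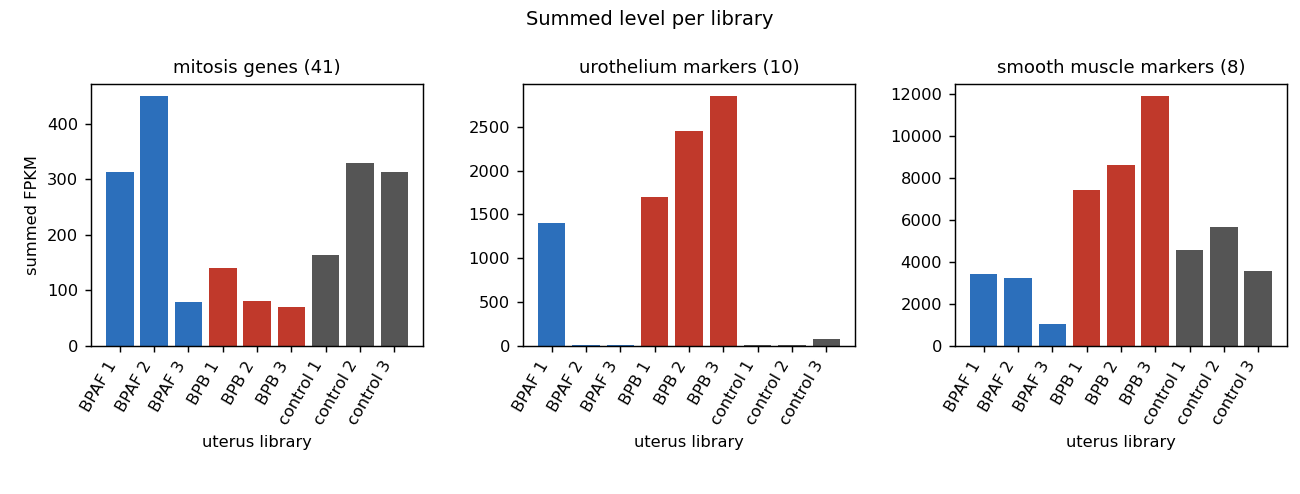
Summed FPKM per library of the 41 mitosis genes, of 10 urothelial markers and of 8 smooth muscle markers, each panel on its own linear axis from 0. BPB libraries are low in the first panel and high in the other panels, while BPAF 1 is high in both the first (313) and the second (1402).

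Between BPAF and control the 41 genes lay on both sides of 0, and no gene passed the test. The question here is the same as for BPB, and both comparisons use the same 3 control libraries. None of the 41 passed limma's test, where 3 of 13743 genes did (0.0218%), 2 lower (0.0146%) and 1 higher (0.00728%), and none reached an unadjusted p under 0.05, against 2.75% of all tested genes lower and 10% higher in BPAF. The log2 difference was below 0 for 23 genes and above 0 for 18, against 29.9% and 70.1% of all tested genes. The median was -0.041, and that of all tested genes 0.21. The groups overlapped for all 41 genes, whereas BPAF lay wholly below control in 2.5% and wholly above it in 14.3% of all tested genes.

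The genes with the smallest p in BPAF against control were Mki67, Spc25, Cenpe, Mad2l1, Hmmr and Dlgap5. Mki67 averaged 14.2 ± 10.3 FPKM across BPAF and 22.5 ± 12.0 FPKM across control (± SD, n = 3 each), a log2 difference of -0.74 (SE 0.55, limma adjusted p 0.588). Cenpe differed by -0.49 (SE 0.42, limma adjusted p 0.640), Mad2l1 by -0.69 (SE 0.60, limma adjusted p 0.646) and Hmmr by -0.65 (SE 0.58, limma adjusted p 0.656). All of these have their highest value of the 9 libraries in control 3. Spc25, of the Ndc80 complex, went the other way, with 6.48 ± 4.31 FPKM across BPAF and 3.17 ± 1.50 FPKM across control and a difference of 0.67 (SE 0.55, limma adjusted p 0.624). Dlgap5 differed by 0.24 (SE 0.32, limma adjusted p 0.770).

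For the other genes the difference of BPAF from control was small beside its interval. Among the cyclin group it was 0.22 for Cdk1 (95% interval -0.97 to 1.41), -0.054 for Ccnb1 (-1.04 to 0.93), -0.15 for Ccnb2 (-1.43 to 1.12), -0.24 for Ccna2 (-1.59 to 1.11) and 0.30 for Foxm1 (-0.76 to 1.36). Among the kinases and the passenger complex it was -0.11 for Plk1 (-1.20 to 0.98), 0.17 for Aurkb (-0.79 to 1.13) and -0.037 for Birc5 (-1.50 to 1.42). Every one of these intervals holds 0. At the kinetochore and checkpoint it was 0.29 for Ndc80 (-1.11 to 1.69), 0.070 for Cenpf (-0.77 to 0.91), 0.0050 for Bub1 (-1.25 to 1.26) and 0.22 for Bub1b (-0.81 to 1.25). Among genes of anaphase, spindle, cytokinesis and chromosome structure, it was -0.11 for Cdc20 (-1.37 to 1.15), -0.34 for Ube2c (-1.82 to 1.14), -0.066 for Kif11 (-1.20 to 1.07), -0.32 for Anln (-1.42 to 0.77) and 0.40 for Top2a (-0.82 to 1.61). Adjusted p in limma was 0.588 to 0.998 over all 41 genes.

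The means of BPAF hide a split between its libraries. BPAF 2 lay above all 3 controls for 34 of the 41 genes, against 34.5% of all tested genes, and BPAF 1 for 12, against 38.7%. BPAF 3 lay below all 3 controls for 38 genes, against 17.9% of all tested genes. The median coefficient of variation of the 41 genes was 67.7% in BPAF, 33.6% in BPB and 46.0% in control, against 29.5%, 23.2% and 38.1% over all tested genes. Without BPAF 3 the median difference from control was 0.54, 4 genes were below 0, and 11 genes had BPAF wholly above control (21.6% of all tested genes). Without BPAF 2 it was -0.41 with 38 genes below 0, without control 1 it was -0.26, and without control 2 it was 0.20. The sign of the median thus changed with the library left out, and it was -0.026 without control 3 and -0.18 without BPAF 1.

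BPAF 3 differed from the other BPAF libraries in tissue markers as well. The 8 smooth muscle markers summed to 3414, 3219 and 1049 FPKM in BPAF 1, 2 and 3, and the 8 markers of uterine stroma to 229, 161 and 397 FPKM. The 8 epithelial markers summed to 1252, 1495 and 649 FPKM, the lowest value of the 9 libraries being that of BPAF 3. Urothelial markers summed to 1402, 7.35 and 12.7 FPKM, with none, 1 and 5 of the 10 genes listed at 0. BPAF 1, with urothelial markers near the BPB level, had 313 FPKM of mitosis genes, and BPAF 3, with few, had 79.0 FPKM. Smooth muscle markers were lowest in BPAF 3 and highest in BPB, where mitosis genes were low in both. The part of cell makeup in the low levels of BPAF 3 was not tested.

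Set directly against BPB at the same dose by mass, BPAF had the higher mean for all 41 genes, and none passed the test. Limma called 33 of 13743 genes (0.24%), all lower in BPAF, and none of the 41. At an unadjusted p under 0.05, 8 of the 41 genes were higher in BPAF and none was lower, against 1.94% higher, 4.81% lower and 6.75% in either direction among all tested genes. The difference, BPAF minus BPB, was above 0 for 41 of 41 genes, against 59.1% of all tested genes, with a median of 0.92 and a range of 0.57 (Kif23) to 1.59 (Ndc80). All tested genes had a median of 0.071. A p that misses the threshold does not show that the compounds act alike, and the 95% intervals run up to 3.17, for Pbk.

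The 6 genes with the smallest p were Top2a, Ndc80, Bub1b, Ccnb2, Dlgap5 and Kif11. Top2a averaged 16.8 ± 10.5 FPKM across BPAF and 4.48 ± 1.39 FPKM across BPB (± SD, n = 3 each), a log2 difference of 1.49 (SE 0.54, limma adjusted p 0.520) and a 95% interval of 0.27 to 2.71. Ndc80 differed by 1.59 (SE 0.62, limma adjusted p 0.602), Bub1b by 1.17 (SE 0.46, limma adjusted p 0.605) and Ccnb2 by 1.36 (SE 0.57, limma adjusted p 0.662). In each of these, BPAF 1 and BPAF 2 lay above every BPB library while BPAF 3 did not. Dlgap5 differed by 0.73 (SE 0.32, limma adjusted p 0.712) and Kif11 by 1.14 (SE 0.51, limma adjusted p 0.735).

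Of the other genes described above, Cdk1 differed by 1.19 between BPAF and BPB (95% interval 0.0017 to 2.38), Ccnb1 by 0.95 (-0.037 to 1.93), Ccna2 by 0.86 (-0.48 to 2.21) and Foxm1 by 0.92 (-0.14 to 1.97). Foxm1 and Cenpa were the only 2 genes of the 41 with all BPAF libraries above all BPB libraries, against 6.54% of all tested genes, and none had them all below (6.41%). Plk1 differed by 0.98 (-0.11 to 2.07), Aurkb by 0.77 (-0.20 to 1.73), Birc5 by 0.99 (-0.47 to 2.45), Bub1 by 1.16 (-0.10 to 2.41) and Mad2l1 by 1.0 (-0.35 to 2.34). Cenpe differed by 0.89 (-0.044 to 1.83), Cenpf by 0.78 (-0.053 to 1.62), Spc25 by 0.92 (-0.32 to 2.15) and Hmmr by 0.86 (-0.44 to 2.16). All of these intervals except that of Cdk1 reach below 0. Cdc20 differed by 1.07 (-0.19 to 2.33), Ube2c by 1.11 (-0.37 to 2.59), Anln by 0.75 (-0.34 to 1.85) and Mki67 by 0.90 (-0.34 to 2.15). Adjusted p in limma was 0.520 to 0.983 over the 41 genes.

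BPAF 1 and BPAF 2 each lay above all 3 BPB libraries for 41 of 41 genes, against 33.3% and 32.8% of all tested genes. BPAF 3 lay above BPB 1 for 2 genes, above BPB 2 for 19 and above BPB 3 for 26, and below all 3 BPB libraries for 14, or 34.1% of the 41 genes, against 25.7% of all tested genes. Without BPAF 3 all 41 genes had BPAF wholly above BPB (16.7% of all tested genes), the median was 1.49, and 39 genes had an unadjusted p under 0.05 (4.07% of all tested genes). The lowest adjusted p was then 0.165, for Bub1b, in limma. Without BPAF 2 the median was 0.53, without BPB 2 it was 0.88 and without BPB 3 it was 0.77, and no gene reached an unadjusted p under 0.05 in any of these. Samples with the same replicate number in BPAF and BPB deviated together. Libraries with different numbers were not compared in this way, so no pairing is established. A fit of these 6 libraries with the replicate number as a block was chosen after seeing the data. That fit had 21 genes higher in BPAF at an unadjusted p under 0.05 (6.51% of all tested genes). Its lowest adjusted p was 0.296, for Ndc80, in limma. The fit of the same 6 libraries without the block had 3 genes (2.8%). With all 9 libraries in the fit, the block gave 8 genes at an unadjusted p under 0.05 and a lowest adjusted p of 0.484, for Top2a, in limma. Between BPAF and BPB, all 8 smooth muscle markers and all 10 urothelial markers had lower means in BPAF, and the part of these markers in the difference of mitosis genes was not tested.

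Control 3 differed from the other 8 libraries in the balance of some pairs of mitosis genes. Mki67 over Top2a, as a ratio of FPKM, was 0.606 to 1.48 in the exposed libraries and 1.38, 1.13 and 4.79 in control 1, 2 and 3. Hmmr over Plk1 was 0.448 to 0.888 in the exposed libraries and 0.529, 0.483 and 3.14 in control 1, 2 and 3. Foxm1 over Plk1 was 0.136 to 0.461 in the exposed libraries and 0.272, 0.319 and 0.0413 in control 1, 2 and 3. Control 3 stood outside the range of the other libraries in these 3 ratios. It stood inside it for Ccnb2 over Ccnb1, which was 6.63 to 17.2 in the exposed libraries and 8.36, 6.60 and 9.47 in control 1, 2 and 3. Across the 41 genes, the log2 level of control 3 minus the mean of controls 1 and 2 was set against transcript GC content (40.1% to 56.0%). For the 38 genes whose length matched no annotated transcript, the GC content is that of the longest annotated transcript. The Pearson correlation was -0.46 and the Spearman correlation -0.40. Over 13245 tested genes with a transcript the values were -0.31 and -0.32. For BPAF 1 minus BPAF 2, a pair without control 3, the values were -0.34 and -0.35 over the 41 genes and -0.040 and -0.068 over the 13245. Genes of one library are not independent, and the part of GC content or of the high mitochondrial share in these levels was not tested.

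The other genes of the cell cycle were followed through 11 further lists. None of their genes passed limma's test in any of the comparisons. The 22 tested other genes of kinetochore and centromere had a median log2 difference of -0.50 between BPB and control, and 19 were lower, while 0.16 and 0.78 were the medians of BPAF against control and BPAF against BPB. The 7 other genes of cytokinesis had -0.86, 0.011 and 0.87, and the 18 other kinesin and spindle genes -0.61, 0.0050 and 0.62, in the same order of comparisons. In each of these lists the median of BPB against control lay nearer 0 than that of the 41 genes. The 16 genes of checkpoint and anaphase had -0.11, 0.30 and 0.29, the 16 of condensin and cohesin -0.18, 0.31 and 0.39, and the 9 of centrosome duplication -0.16, 0.30 and 0.27. All tested genes had medians of 0.15, 0.21 and 0.071.

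Among mitotic entry genes (11 tested, medians -0.40, 0.31 and 0.71), Mastl had the smallest p. Mastl, the Greatwall kinase that restrains the phosphatase opposing CDK1, had 6.33, 10.1 and 4.27 FPKM in BPAF, 1.94, 3.48 and 1.58 FPKM in BPB and 6.52, 5.64 and 8.71 FPKM in control. BPB lay wholly below both other groups, with a difference from control of -1.28 (SE 0.33, limma adjusted p 0.0814). Tacc3, a spindle protein, had 4.40, 7.78 and 1.87 FPKM in BPAF, 3.11, 1.60 and 1.15 FPKM in BPB and 3.38, 6.91 and 4.80 FPKM in control and differed between BPB and control by -1.04 (SE 0.43, limma adjusted p 0.250). BPB lay wholly below control for it, as it did for the next pair. Ncapg, of condensin, had 2.14, 3.70 and 0.749 FPKM in BPAF, 0.881, 0.619 and 0.579 FPKM in BPB and 1.41, 2.68 and 3.36 FPKM in control, a difference of BPB from control of -1.0 (SE 0.37, limma adjusted p 0.197). Arhgap11a, a regulator of RhoA, had 1.63, 2.66 and 1.70 FPKM in BPAF, 1.09, 0.895 and 1.30 FPKM in BPB and 1.66, 2.29 and 2.22 FPKM in control, a difference of -0.54 (SE 0.22, limma adjusted p 0.251). Dsn1 of the kinetochore had 3.31, 4.04 and 2.06 FPKM in BPAF, 1.05, 1.32 and 1.54 FPKM in BPB and 0.872, 1.81 and 1.55 FPKM in control, a difference of BPAF from BPB of 0.82 (SE 0.26, limma adjusted p 0.427). BPAF lay wholly above both other groups for Dsn1. Zwilch of the checkpoint had 3.70, 5.47 and 1.93 FPKM in BPAF, 2.00, 1.25 and 1.01 FPKM in BPB and 1.34, 2.57 and 2.78 FPKM in control, a difference of BPAF from BPB of 0.90 (SE 0.34, limma adjusted p 0.557), and BPAF 3 lay below BPB 1. Nedd1, which recruits gamma-tubulin, had 15.2, 13.4 and 12.2 FPKM in BPAF, 8.82, 9.19 and 8.46 FPKM in BPB and 7.76, 10.2 and 6.35 FPKM in control, and BPAF lay wholly above both other groups, with a difference from control of 0.70 (SE 0.23, limma adjusted p 0.304).

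Genes of earlier phases of the cell cycle were followed as well. The 20 genes of DNA replication had medians of -0.33, 0.68 and 0.99, with 18 of 20 lower in BPB than in control (36.5% of all tested genes) and 20 of 20 higher in BPAF than in control (70.1%). Their summed level was 248, 449 and 89.0 FPKM in BPAF, 126, 86.0 and 78.0 FPKM in BPB and 94.8, 207 and 105 FPKM in control, so that BPAF 3 lay below all 3 controls. Mcm7, of the replicative helicase, had 14.6, 21.3 and 12.2 FPKM in BPAF, 8.16, 7.63 and 7.21 FPKM in BPB and 4.82, 8.55 and 3.93 FPKM in control. BPAF lay wholly above both other groups, with a difference from control of 1.36 (SE 0.30, limma adjusted p 0.230). G1 and S phase cyclins with E2F factors (14 tested) had medians of -0.0067, 0.58 and 0.55. Factors of the DREAM and MuvB complexes (14 tested) had medians of 0.038, 0.44 and 0.31, and Rbl2, the p130 pocket protein of resting cells, had 8.58, 8.61 and 16.3 FPKM in BPAF, 10.9, 9.89 and 11.0 FPKM in BPB and 5.63, 5.93 and 3.31 FPKM in control. Both exposed groups lay wholly above control for Rbl2, with differences of 1.0 (SE 0.30) in BPAF and 0.99 (SE 0.30) in BPB and adjusted p of 0.301 and 0.128 in limma.

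The 10 tested genes outside the list whose level followed the mean of the 41 most closely over the 9 libraries were Cse1l, Spdl1, Sgol2a, Sgol1, Cep55, Dbf4, Aspm, Tacc3, Kif15 and 2810417H13Rik, with Pearson correlations of 0.99 to 0.97. Cse1l, an exporter of importin alpha, had 16.0, 18.3 and 8.91 FPKM in BPAF, 12.0, 9.80 and 9.30 FPKM in BPB and 11.2, 16.8 and 14.6 FPKM in control. Kif15, a spindle kinesin, had 8.86, 10.6 and 1.65 FPKM in BPAF, 2.72, 1.73 and 1.22 FPKM in BPB and 2.27, 5.93 and 6.14 FPKM in control. Both were low in BPAF 3 and in BPB and high in BPAF 1 and 2, as the 41 genes were, and Cse1l spanned a narrower range.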

How the data were processed

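The authors deposited 1 value per gene symbol and library, in files whose headers name no unit. The values were read as FPKM that the authors computed, since, times transcript length, 84.8% to 86.7% of them in genes with a single transcript came out whole (tolerance 0.01) in units of a step fixed for each library. Reads were recovered from these steps. For 38 of the 41 genes the length that gave whole reads, such as 8046 bases for Ccnb1, is that of no GENCODE M21 transcript of the gene. Their read counts and their levels beside those of other genes thus rest on lengths that match no single annotated transcript. The length of all exons of a gene merged was not compared. The aligner, the counter, the build, the annotation and the use of strand were not given in the sources used here. Of 34745 lines per file, 126 with a repeated symbol were left out, and 13743 genes with at least 1 FPKM in at least 3 libraries entered limma 3.58.1 (R 4.3.3, trend and robust options) as log2(FPKM + 1), which understates changes of low genes. All 9 libraries entered 1 fit with group as the only term, tests were two-sided, and p-values were adjusted by the Benjamini-Hochberg method over all tested genes. The scripts were tested on simulated data. As the values are not counts, no count model was used.

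The 41 genes, the other lists and the markers were chosen with earlier results of these data known. Values by library are given for the 6 genes with the smallest p in each comparison and for a set of 16 always named genes, and from each other list for the gene with the smallest p. Older symbols Casc5, Sgol1 and Sgol2a stood for Knl1, Sgo1 and Sgo2a, and Septin7 was not matched. The labels give the same replicate numbers 1 to 3 in each group. Deviations from the group means over 13743 genes correlated at 0.34, 0.34 and 0.48 between same-numbered BPAF and BPB libraries, and at -0.40 to -0.079 between either group and control. By the rule that every pair exceed 0.1, a pairing was considered for BPAF with BPB only. Libraries with different numbers were not correlated and the labels state no pairing, so these values do not establish one. The main fits left the replicate number out, and it entered only the alternative fits with a block. Promoters were taken from RefSeq (GRCm38.p6).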

Additional observations from a re-analysis of the deposited data

How the results depend on the processing

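No mitosis gene was called in any comparison under any alternative run. The lowest adjusted p in limma ranged from 0.051 to 0.40 for BPB against control, 0.304 to 0.837 for BPAF against control and 0.165 to 1 for BPAF against BPB. The median of the 41 genes moved by less than 0.652 log2 units under all alternatives. That wide limit is the pooled SD within groups of the genes' mean log2 level per library, and this SD was largest in BPAF, at 0.99. For BPAF against control the median ran from -0.41 without BPAF 2 to 0.54 without BPAF 3. Its sign changed without BPAF 3 or control 2. Median-ratio scaling moved the median of all genes to -0.040 for BPB and -0.023 for BPAF against control, in place of 0.15 and 0.21, and those of the 41 genes to -1.23 and -0.28, with 35 in place of 23 genes lower in BPAF.

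Counts over all genes moved more. For BPB against control, 351 genes were called in all, 163 with no filter, 152 and 66 with pseudocounts of 0.1 and 0.01, 774 at an adjusted p under 0.1, and 0 to 132 with a library left out. For BPAF against control, 3 were called in all, and 0 with only the 6 libraries, 0 without control 3 and BPAF 1 together, and 0 to 2 with a library left out. For BPAF against BPB, 33 were called in all, 11 with no filter, 0 with either pseudocount or only the 6 libraries, 66 at an adjusted p under 0.1, and 0 to 237 with a library left out, the highest without BPAF 1. With the replicate number as a block the counts were 19 for BPB against control, 0 for BPAF against control and 0 for BPAF against BPB, and with the block in only the 6 libraries 224, 0 and 0. The block called no mitosis gene. The 6-library block and the joint omission of control 3 and BPAF 1 were chosen after seeing the data. The count method planned, edgeR, was meant for raw counts and was not run. The cause of these moves was not tested. With 3 libraries a group, the median 95% interval of the 41 genes spanned 1.14 log2 units to either side.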

Other observations

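The 11 tested cell cycle inhibitors and genes of quiescence had median log2 differences of 0.11 for BPB against control, 0.28 for BPAF against control and -0.060 for BPAF against BPB, and none passed limma's test. At an unadjusted p under 0.05, 2 of the 11 were higher in BPB than in control, Cdkn2b and Cdkn1b, against 12.8% of all tested genes higher, 1 was lower in BPAF than in control, Cdkn1a, against 2.75% lower, and 2 were lower in BPAF than in BPB, Ccng1 and Cdkn1a, against 4.81% lower. Cdkn2b and Cdkn1b, inhibitors of cyclin-dependent kinases, differed between BPB and control by 1.13 (SE 0.38, limma adjusted p 0.163) and 0.76 (SE 0.32, limma adjusted p 0.256). Ccng1, a cyclin G induced by p53, had 28.1, 19.1 and 21.9 FPKM in BPAF 1, 2 and 3, 39.9, 37.1 and 48.4 FPKM in BPB 1, 2 and 3, and 25.1, 30.1 and 31.5 FPKM in control 1, 2 and 3. BPB lay wholly above both other groups, with a difference of BPAF from BPB of -0.84 (SE 0.24, limma adjusted p 0.309) and of BPB from control of 0.52 (SE 0.24, limma adjusted p 0.306). Ccnd2, the G1 cyclin D2, showed the same order with 3.36, 2.61 and 2.74 FPKM in BPAF, 7.08, 9.02 and 10.3 FPKM in BPB and 3.90, 5.26 and 1.43 FPKM in control, and a BPB difference from control of 1.2 (SE 0.34, adjusted p = 0.103 in limma). The mean of this G1 cyclin was highest in BPB, where the means of the mitotic cyclins Ccnb1 and Ccnb2 were lowest. Whether these values come from the same cells was not tested.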
